A study of Mus musculus with 6 samples.

Results

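The 8 Schwann cell and myelin genes described here were *Mbp*, *Pmp22*, *S100b*, *Prx*, *Mag*, *Sox10*, *Ncmap* and *Cnp*, and their rows were taken by gene name from the 53084 rows of the muscle count table. All 8 were found, and 6 of them had enough reads to be tested together with 15075 genes in all, whereas *Mag* and *Sox10* did not. No genotype difference passed for any of the 6 (adjusted p under 0.05). The widest differences lay between *Tarsl2*-/- mice. *Mbp* was counted at 6.74, 60.6 and 12.6 CPM (counts scaled to the size of the library) in mice 588, 589 and 591, and at 27.9, 29.2 and 21.4 CPM in the *Tarsl2*+/+ mice 583, 584 and 595. The order of *Mbp* among these mice (588, 591, 589 from low to high) was noticed in these values and was not tested. It was found for 5 of the 6 tested genes, *Mbp* itself included, where 18.2% of all tested genes had it. Of 47 tested genes of 7 other nerve lists, 11 had it (23.4%).

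The libraries came from the muscle of male C57BL/6 mice, 6 weeks old and fed standard chow, with 3 *Tarsl2*+/+ mice (WT) and 3 *Tarsl2*-/- mice (KO) and 1 library per mouse. *Tarsl2* encodes a threonyl-tRNA synthetase-like protein, and in the KO mice its exon 3 was removed with CRISPR-Cas9 in C57BL/6J zygotes, so that the deletion is present in every tissue, nerve included. The labels do not say which muscle was taken or whether a nerve branch was dissected with it. The sample records also describe an extraction from retina, yet none of 8 retinal marker genes exceeded 7 counts in any library and 4 of them were at 0 in all, while 10 muscle fibre genes together made up between 68290 and 88310 CPM. Library totals were between 16176591 and 20123767 counts, at which 3 counts equal 0.146 to 0.187 CPM. *Tarsl2* itself had 456, 605 and 464 counts in the WT mice and 40, 30 and 37 in KO mice 588, 589 and 591.

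Skeletal muscle contains branches of motor and sensory nerves, whose larger axons are wrapped by Schwann cells in a myelin sheath. Compact myelin is a stack of membranes held together by adhesion proteins and myelin basic protein, and it is bordered by channels of cytoplasm that keep the outer and inner parts of the cell in contact. The transcription factors SOX10 and EGR2 drive the myelin genes of Schwann cells, while other Schwann cells ensheathe small axons, or cap the neuromuscular junction, without making myelin. In whole muscle, fewer Schwann cells in a sample and less of a transcript per Schwann cell cannot be told apart. No library of pure nerve was measured, so a nerve share could be judged only relative to the other libraries.

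*Mbp* and *Pmp22* encode proteins of compact myelin. *Mbp* (chromosome 18, 82475146 to 82585637, GRCm38) encodes myelin basic protein, which holds the cytoplasmic faces of the membrane together. Its 478, 550 and 408 counts in WT mice 583, 584 and 595 lay between the 121 and 260 counts of KO mice 588 and 591 and the 973 counts of KO mouse 589. The genotype means were 26.2 ± 4.18 CPM in WT and 26.7 ± 29.6 CPM in KO muscle (SD, n = 3 each). The log2 fold change (KO over WT) was 0.01, with a standard error of 0.57 and a 95% interval from -1.24 to 1.26 (adjusted p = 0.995, edgeR). A difference of more than 2-fold in either direction was therefore within the interval.

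*Pmp22* (chromosome 11, 63128982 to 63159547) encodes peripheral myelin protein 22, a membrane protein changes in whose gene dosage cause inherited neuropathies and which is also transcribed outside nerve. It was counted at 120, 113 and 144 CPM in the WT mice and at 106, 110 and 117 CPM in KO mice 588, 589 and 591. These values differed little between mice, and the genotypes overlapped. The log2 fold change was -0.17 (standard error 0.10, 95% interval -0.40 to 0.05, adjusted p = 0.376, edgeR).

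*Prx*, *Ncmap*, *Mag* and *Cnp* encode proteins of the sheath outside compact myelin. *Prx* (chromosome 7, 27499324 to 27520214) encodes periaxin, a scaffold at the outer Schwann cell membrane. It was counted at 5.84, 5.36 and 6.82 CPM in the WT mice and at 3.23, 9.47 and 6.80 CPM in KO mice 588, 589 and 591. The lowest and the highest value both came from KO mice, and the log2 fold change was 0.11 (standard error 0.30, 95% interval -0.54 to 0.75, adjusted p = 0.888, edgeR). *Ncmap* (chromosome 4, 135369576 to 135398227) encodes the noncompact myelin associated protein of peripheral nerve. Its levels were 2.69, 2.92 and 2.88 CPM in the WT mice and 2.23, 4.11 and 3.35 CPM in the KO mice in the same order. The WT mice lay close together and inside the range of the KO mice, and the log2 fold change was 0.19 (standard error 0.24, 95% interval -0.34 to 0.71, adjusted p = 0.719, edgeR).

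*Cnp* (chromosome 11, 100574904 to 100591729) encodes the cyclic nucleotide phosphodiesterase of the cytoplasmic channels, an enzyme that other cells contain as well. It was counted at 18.2, 15.1 and 17.3 CPM in the WT mice and at 10.7, 15.2 and 12.6 CPM in KO mice 588, 589 and 591. All KO values but that of mouse 589 were below the WT range, and this mouse exceeded WT mouse 584 only narrowly. The log2 fold change was -0.39 (standard error 0.14, 95% interval -0.69 to -0.09), the furthest from 0 among the 6 tested genes. Its unadjusted p was 0.0150 and its adjusted p 0.146 (edgeR), so that it did not pass. *Cnp* did pass in a fit without a filter on low counts (adjusted p = 0.0447, edgeR). That fit called 1437 genes, where the filtered fit called 342. For *Mbp*, which differed widely between KO mice, it gave a standard error of 0.12, where the filtered fit gave 0.57. The pass of *Cnp* there therefore adds little. *Mag* (chromosome 7, 30899176 to 30914873), the adhesion protein of the membrane next to the axon, had only 9, 13 and 7 counts in the WT mice and 11, 6 and 10 counts in KO mice 588, 589 and 591. At this depth no difference was detectable.

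*S100b* (chromosome 10, 76253853 to 76261159) encodes a calcium-binding protein of the Schwann cell cytoplasm, present in cells with and without myelin. It was counted at 8.0, 7.85 and 5.14 CPM in the WT mice and at 4.84, 7.91 and 6.94 CPM in KO mice 588, 589 and 591. Here the WT mice spread as widely as the KO mice, and the log2 fold change was -0.09 (standard error 0.21, 95% interval -0.56 to 0.38, adjusted p = 0.862, edgeR). *Sox10* (chromosome 15, 79154913 to 79164490) encodes the transcription factor that Schwann cells need throughout their lineage. It had 1, 9 and 1 counts in the WT mice and 5, 11 and 2 counts in KO mice 588, 589 and 591, so that several libraries were at or under 3 counts.

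**Figure D1:**
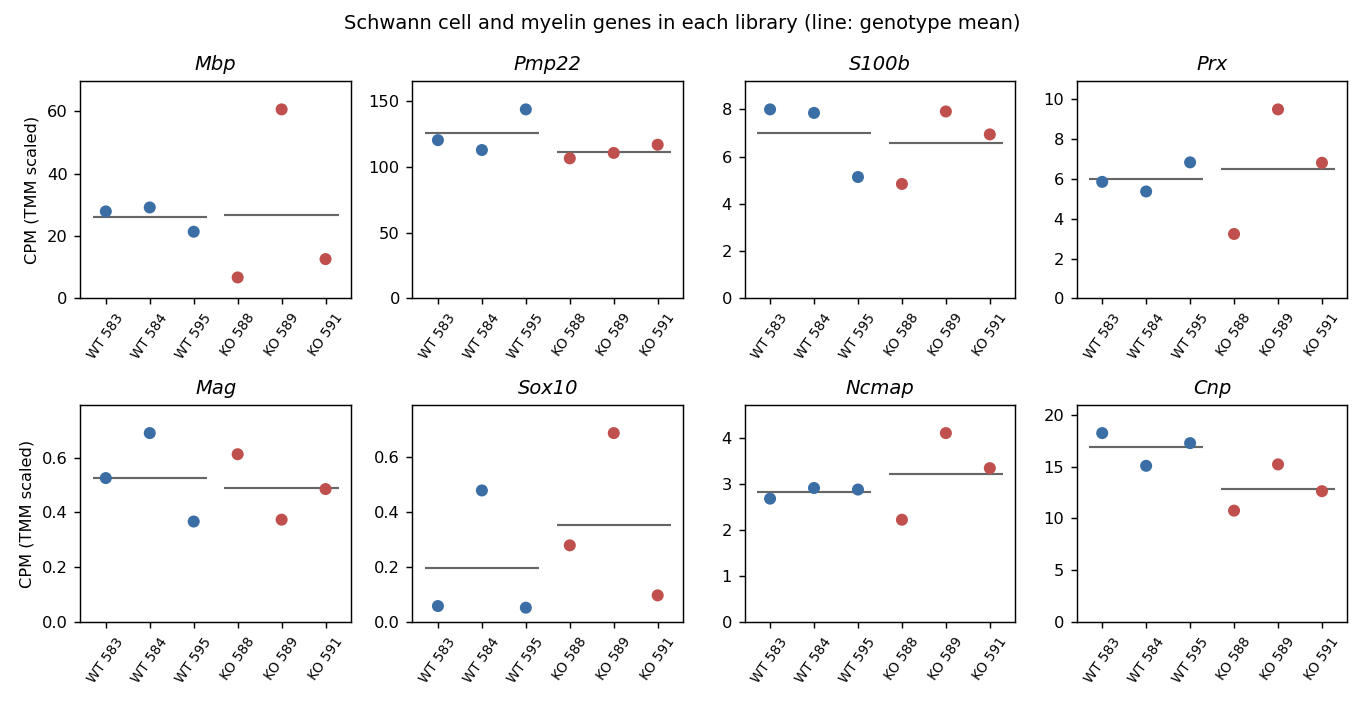
Level of each of the 8 genes in CPM (TMM scaled, vertical axis from 0) in the 3 WT libraries (blue) and the 3 KO libraries (red), with a line at each genotype mean. KO 588 was lowest and KO 589 highest for *Mbp*, at 6.74 and 60.6 CPM, whereas *Pmp22* stayed between 106 and 144 CPM in every library.

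None of the 6 tested genes was therefore called, where 342 of the 15075 genes tested were called (2.27%, or 0.896% higher and 1.37% lower in KO muscle), and the genotypes overlapped for all 8, where 24.6% of all tested genes did not overlap. With so few genes, 0 called is close to this background. The exact permutation test (two-sided), whose smallest possible p is 0.1 with 3 mice a side, gave p-values between 0.2 and 1 for the 8 genes. At an unadjusted p under 0.05 only *Cnp* was counted, beside 19.8% of all tested genes. DESeq2, which called 4.96% of the genes it tested, and limma-voom called none of the 6 either.

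**Figure D2:**
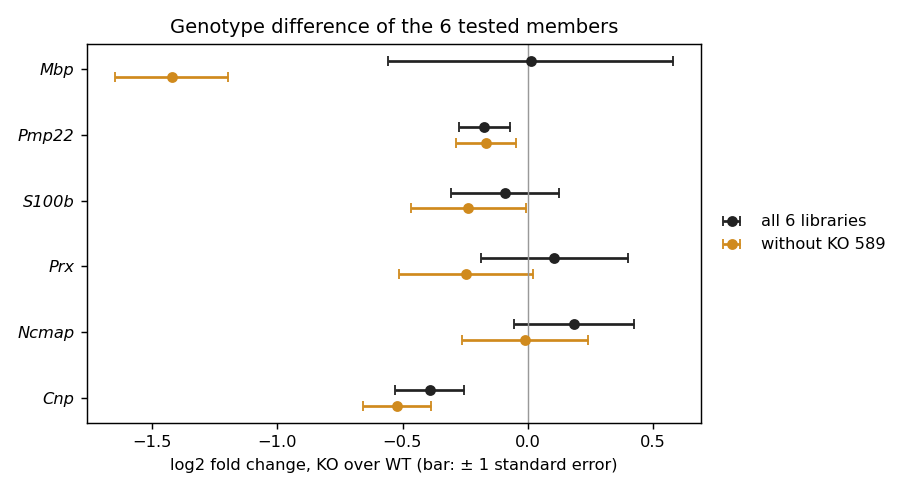
Log2 fold change (KO over WT) of the 6 tested genes from edgeR with bars of 1 standard error, for all 6 libraries (black) and without KO 589 (orange). Without KO 589, the library with the highest *Mbp*, the estimate for *Mbp* moved from 0.01 to -1.42, and that for *Pmp22* was -0.17 in both.

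The result for *Mbp* rested on mouse 589, whose sample title has the letters KOT where the other KO titles have KO. Without this library its log2 fold change was -1.42 (standard error 0.23, adjusted p = 0.0203, edgeR), in a fit that called 126 of 15456 genes (0.815%). The KO mice left were 588 and 591, at 6.74 and 12.6 CPM. As mouse 589 had the highest *Mbp* of all libraries, leaving it out fixed a lower KO mean in advance. This p is therefore no test of genotype. None of the other 5 tested genes passed in that fit, with log2 fold changes of -0.52 for *Cnp* (adjusted p = 0.116), -0.25 for *Prx* (adjusted p = 0.721), -0.24 for *S100b* (adjusted p = 0.679), -0.17 for *Pmp22* (adjusted p = 0.558) and -0.01 for *Ncmap* (adjusted p = 0.989). Without mouse 588, the other extreme, the log2 fold change of *Mbp* was 0.47 (standard error 0.46, adjusted p = 0.619, edgeR). The sign of the estimate thus changed with which KO mouse was left out.

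The spread between KO mice was then described gene by gene. From mouse 588 to mouse 589, *Mbp* differed 9.0-fold (95% counting interval 7.44 to 10.96) and *Prx* 2.93-fold (2.15 to 4.04). *Ncmap* differed 1.85-fold (1.23 to 2.81), *S100b* 1.63-fold (1.23 to 2.17) and *Cnp* 1.42-fold (1.17 to 1.72). For *Pmp22* the ratio was 1.04 (0.973 to 1.11), close to the median of 1.00 over all tested genes. These ratios compare 2 libraries, and their intervals cover counting error only. For *Sox10* the ratio was 2.46 (0.788 to 9.04) and for *Mag* 0.610 (0.185 to 1.80), neither distinguishable from 1 at their counts.

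The WT mice were closer together for *Mbp*, *Prx*, *Ncmap* and *Cnp*, but not for *S100b* and *Pmp22*. Their highest library exceeded the lowest 1.36-fold for *Mbp*, 1.27-fold for *Prx* and *Pmp22*, 1.09-fold for *Ncmap*, 1.21-fold for *Cnp* and 1.56-fold for *S100b*. Ranked by the SD of log2 CPM between the KO mice, *Mbp* was at percentile 99.95 of all tested genes, *Prx* at 98.25 and *Ncmap* at 90.18, while between the WT mice they were at percentiles 71.64, 55.22 and 13.3. *Pmp22* was at percentile 15.73 between the KO mice and 57.48 between the WT mice, and *S100b* at 85.53 and 85.82. The order 588, 591, 589 from low to high was found for 5 of the 6 tested genes (all but *Pmp22*, with *Mbp* itself counted), where 18.2% of all tested genes had it. This order was noticed in these values and was not tested. The counting intervals of KO 591 and KO 589 overlapped for *S100b* (5.9 to 8.2 and 6.6 to 9.4 CPM), *Ncmap* and *Cnp*. KO 588 was the lowest of the 6 libraries for all 6, but the share of all tested genes lowest there was not counted. For *Pmp22* its interval (102 to 111 CPM) overlapped that of KO 589 (105 to 116 CPM).

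The level of each gene was divided by the gene length deposited with the counts, on which the ranking depends. Averaged over the 6 libraries, it was 50.3 CPM per kb for *Pmp22*, 4.57 for *S100b*, 4.08 for *Cnp* and 3.14 for *Mbp*. It was 1.36 CPM per kb for *Ncmap*, 1.12 for *Prx*, 0.125 for *Mag* and 0.101 for *Sox10*. *Pmp22* was above every other one of the genes in each library. The ranges of *S100b*, *Cnp* and *Mbp* overlapped, as did those of *Ncmap* and *Prx* and those of *Mag* and *Sox10*, and the range of *Mbp* also reached into those of *Ncmap* and *Prx*, so that the spread between mice did not separate these neighbours. Because of its level, *Pmp22* made up between 52.9% and 78.8% of the summed CPM of the 8 genes. Without it the other 7 genes summed to 63.2, 61.5 and 53.9 CPM in WT mice 583, 584 and 595 and to 28.7, 98.4 and 42.9 CPM in KO mice 588, 589 and 591.

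To set the libraries beside each other with each gene weighted alike, a nerve index was taken as the mean, over the 6 tested genes, of log2 CPM minus the mean of that gene over all libraries. It was 0.139, 0.083 and 0.0533 in WT mice 583, 584 and 595, and -0.656, 0.472 and -0.092 in KO mice 588, 589 and 591. The WT libraries thus lay near each other (0.0917 ± 0.0435, SD, n = 3), between KO 588 and KO 589 (KO -0.0917 ± 0.564, SD, n = 3). Single genes deviated more within the WT mice, in opposite directions that cancelled in the mean. In WT 595, for example, *Pmp22* was at 0.285 and *S100b* at -0.364. The difference between the genotype means was -0.18, smaller than the spread between KO mice. It was -0.10 without *Mbp* and 0.07 from *Prx* and *Ncmap* alone, which are the most restricted to myelinating Schwann cells among the tested genes. The other 4 tested genes, *Mbp* and *S100b* included, were listed as more broadly expressed. The difference between the genotype means was -0.47 without KO 589 and 0.10 without KO 588. KO 591, below every WT library in the index, was above every WT library from *Prx* and *Ncmap* alone, at 0.176 beside -0.0853, -0.0888 and 0.0738 in WT mice 583, 584 and 595.

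**Figure D3:**
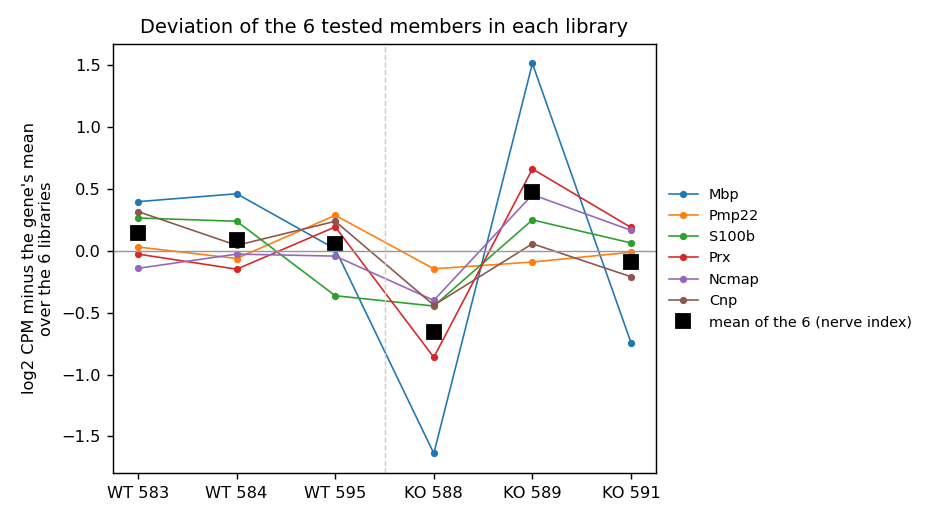
Log2 CPM of each tested gene minus its mean over the 6 libraries (coloured points, joined only to follow a gene) and their mean, the nerve index (black squares), by library. The index ran from -0.656 in KO 588 to 0.472 in KO 589 and stayed between 0.0533 and 0.139 in the WT libraries.

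The genes did not vary in proportion. Across the 6 libraries the ratio of *Mbp* to *Prx* changed 3.45-fold, that of *Mbp* to *Ncmap* 4.87-fold and that of *Mbp* to *Pmp22* 8.66-fold. The ratio of *Prx* to *Ncmap* changed 1.63-fold, that of *Cnp* to *Prx* 2.07-fold and that of *S100b* to *Prx* 1.99-fold. These changes have no counting interval, and no ratio was taken for *Mag* and *Sox10*. No single figure for the nerve share of a library therefore described *Mbp* together with *Prx*, *Ncmap* and *Pmp22*.

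The windows of 250 bases before the transcript start (RefSeq, GRCm38.p6, 5′ to 3′ on the strand of the gene) are shown for *Prx* and *Ncmap*, which had the same order among the 3 KO libraries, and for *Pmp22*, which did not. They were read at chr7:27499074-27499323 (plus strand), chr4:135398228-135398477 (minus strand) and chr11:63128732-63128981 (plus strand). For each gene only the window nearest its 5′ end was read. Of the annotated transcripts, 2 of 4 had a start matching this window for *Prx*, 2 of 8 for *Ncmap* and 1 of 5 for *Pmp22*. Other transcript starts were not examined, so a window does not stand for all RNA of its gene. Capitals mark matches to ACAAAG or ACAAT, the core letters of SOX-type motifs, on either strand.
Prx: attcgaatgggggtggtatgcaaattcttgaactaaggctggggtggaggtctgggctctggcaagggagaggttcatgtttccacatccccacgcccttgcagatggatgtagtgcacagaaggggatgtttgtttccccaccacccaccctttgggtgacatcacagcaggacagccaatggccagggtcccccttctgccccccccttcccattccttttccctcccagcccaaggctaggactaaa
Ncmap: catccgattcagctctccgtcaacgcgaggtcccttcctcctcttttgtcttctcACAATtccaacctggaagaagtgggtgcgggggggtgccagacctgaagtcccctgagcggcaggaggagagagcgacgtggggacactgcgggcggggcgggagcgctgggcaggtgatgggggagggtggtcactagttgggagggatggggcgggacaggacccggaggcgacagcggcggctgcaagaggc
Pmp22: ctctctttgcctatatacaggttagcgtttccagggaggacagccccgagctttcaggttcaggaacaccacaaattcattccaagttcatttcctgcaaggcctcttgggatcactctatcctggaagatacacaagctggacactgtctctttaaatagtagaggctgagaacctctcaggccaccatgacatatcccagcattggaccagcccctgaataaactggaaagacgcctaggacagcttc
Of the 6 genes with a window in the RefSeq table (*Pmp22*, *S100b*, *Prx*, *Mag*, *Ncmap* and *Cnp*), *Mag*, *Ncmap* and *Cnp* held a match to either motif, where 38.8% of 32851 windows did. The EGR-type motif GCGNGGGCG was found in 0 of the 6 and in 4.7% of all windows. These letters describe the windows and identify no binding site.

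Other genes of nerve were examined in 7 lists with 74 genes, of which 47 could be tested. None was called (smallest adjusted p = 0.0791 for *Dst*, edgeR), where 2.27% of all tested genes were. An unadjusted p under 0.05 was found for 13, where 19.8% of all tested genes had one, and 14 did not overlap between genotypes (29.8%, where the share was 24.6% over all tested genes), 8 of them higher and 6 lower in KO muscle. The median log2 fold change of the 47 genes was 0.03, and that of all tested genes 0.00270. The examples were taken from the 3 genes with the highest level per kilobase in each list, and any further gene named in them was chosen after its values were seen.

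Of 14 other myelin protein genes 10 were tested, with a median log2 fold change of 0.07, and *Cd9* and *Mpdz* were among those with the highest levels. *Cd9*, a tetraspanin found in many cell types, was at 60.0, 61.1 and 65.9 CPM in the WT mice and at 52.0, 50.8 and 57.0 CPM in KO mice 588, 589 and 591 (log2 fold change -0.23, adjusted p = 0.172, edgeR). *Mpdz*, a multi-PDZ scaffold, stayed between 36.8 and 42.6 CPM in all libraries.

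From KO 588 to KO 589, *Mal*, a proteolipid of compact myelin, differed 4.31-fold (2.61 to 7.44) and *Drp2*, the partner of periaxin at the outer membrane, 2.33-fold (1.64 to 3.36). *Cadm4*, an adhesion molecule of the inner membrane, differed 2.26-fold (1.67 to 3.08). These were chosen for their high ratios. In the same list *Tspan2*, a tetraspanin, had a ratio of 0.630 (0.495 to 0.80) and *Cd9* of 0.976 (0.888 to 1.07), 6 of the 10 tested genes had the order 588, 591, 589, and the median ratio was 1.40. Over all 47 tested genes of the 7 lists the interval of this ratio lay above 1 for 7 genes and below 1 for 5. This count leaves out the 27 genes with too few reads to be tested. None of those had an interval below 1, and several lay above 1 at low counts. Examples were *Cldn19* (20.1, 3.18 to 839), *Pllp* (7.83, 1.80 to 71.0) and *Fa2h* (8.39, 1.95 to 75.6).

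Among 8 genes of myelin lipid synthesis 5 were tested. *Ugt8a*, which makes galactosylceramide, had 35, 21 and 30 counts in the WT mice and 10, 57 and 45 counts in KO mice 588, 589 and 591, a ratio of 6.38 (3.23 to 14.0) from mouse 588 to mouse 589, and it was the only 1 of the 5 with the order 588, 591, 589. The 3 genes with the highest levels serve lipid synthesis in most tissues. The ratio was 0.796 (0.729 to 0.868) for the desaturase gene *Degs1*, 1.35 (1.19 to 1.53) for the ceramide synthase gene *Cers2* and 1.07 (0.832 to 1.37) for the elongase gene *Elovl1*. Between genotypes, the log2 fold change was -0.41 for *Degs1* (adjusted p = 0.173), -0.10 for *Cers2* (adjusted p = 0.707) and -0.21 for *Elovl1* (adjusted p = 0.457, all edgeR).

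**Figure D4:**
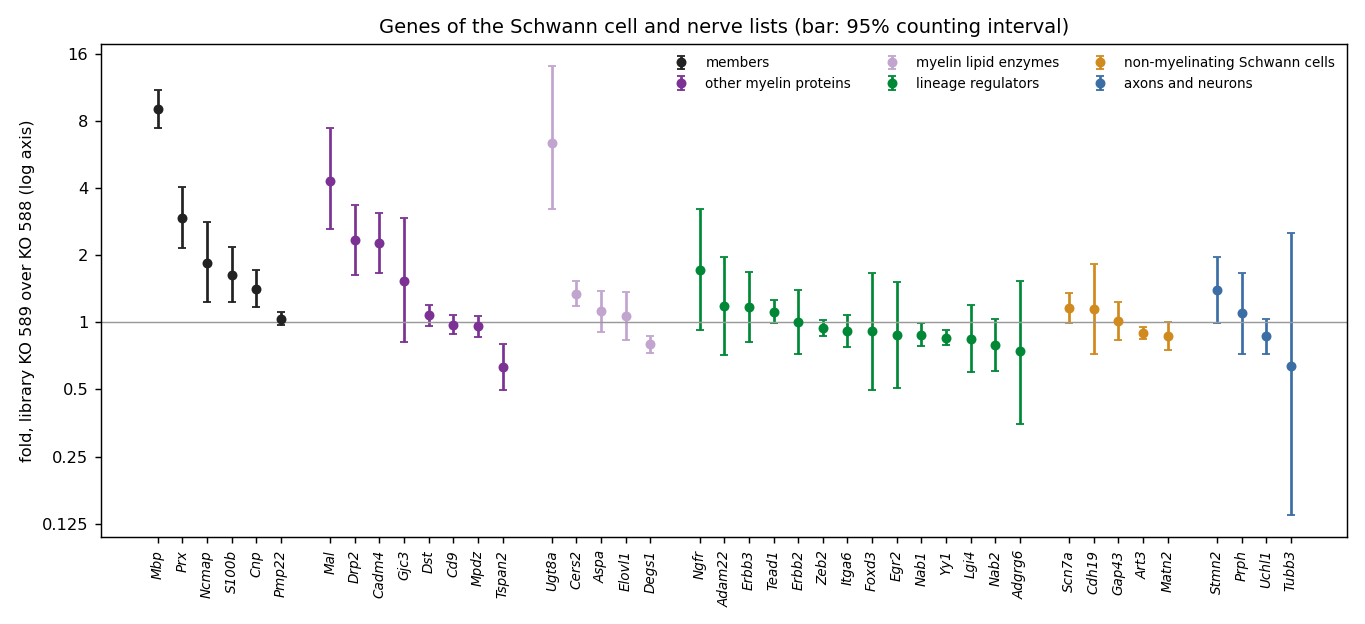
Ratio of CPM in library KO 589 to that in KO 588 (log axis) for tested genes of the 8 and of 5 further lists, with 95% counting intervals. *Mbp* (9.0), *Ugt8a* (6.38) and *Mal* (4.31) stand above, while most lineage regulators and axon genes lie near 1, where the median of all tested genes also lay (1.00).

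Among the lineage regulators that could be tested, the order 588, 591, 589 was rare, but it was also absent from most of all tested genes. Of 18 genes 14 were tested, with a median log2 fold change of 0.07. Of the 14, 1 (*Ngfr*) had this order, where 18.2% of all tested genes had it, and the difference was not tested. The median ratio of KO 589 to KO 588 was 0.912, where it was 1.00 over all tested genes. Of those with too few reads to be tested, *Dhh* had this order, at 1, 8 and 3 counts in KO mice 588, 589 and 591. *Pou3f1*, *Sox2* and *Nrg1* did not have it. *Egr2*, which drives myelination, had 28, 35 and 48 counts in the WT mice and 33, 26 and 18 counts in KO mice 588, 589 and 591. *Yy1*, *Nab1* and *Zeb2*, which are expressed in many tissues, had the highest levels. Their log2 fold changes were -0.23 for *Yy1* (adjusted p = 0.307), 0.17 for *Nab1* (adjusted p = 0.300) and -0.21 for *Zeb2* (adjusted p = 0.293, all edgeR). *Erbb3*, the neuregulin receptor of Schwann cells, was at 2.86, 1.80 and 2.46 CPM in the WT mice and at 3.56, 4.17 and 4.71 CPM in KO mice 588, 589 and 591. Every KO mouse was above every WT mouse, and the log2 fold change was 0.81 (standard error 0.22, adjusted p = 0.0819, edgeR), which did not pass. *Foxd3*, a neural crest and glial transcription factor, had 14, 9 and 15 counts in the WT mice and 27, 22 and 29 counts in the KO mice in that order (log2 fold change 1.04, adjusted p = 0.105, edgeR). Other genes of this list went the other way without overlap. *Lgi4* was at 5.43, 5.25 and 5.14 CPM in the WT mice and at 4.57, 3.86 and 3.54 CPM in KO mice 588, 589 and 591. Its log2 fold change was -0.40 (adjusted p = 0.208), and that of *Adgrg6* was -0.66 (adjusted p = 0.250, both edgeR).

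Of 10 genes of nodes and adhesion 6 were tested, with a median log2 fold change of -0.24. The log2 fold change was -0.06 for *Ncam1*, the neural cell adhesion molecule that muscle makes too (adjusted p = 0.920), 0.41 for *Cdh19*, a cadherin of Schwann cells (adjusted p = 0.380) and -0.43 for *Cdh2*, N-cadherin (adjusted p = 0.426, all edgeR). Of 10 genes of non-myelinating Schwann cells 6 were tested, and the list summed to 146 to 151 CPM in WT and 164 to 175 CPM in KO muscle, so that the genotypes did not overlap. Most of this sum was *Art3*, an ecto-ADP-ribosyltransferase that muscle also makes, at 85.8, 92.4 and 92.9 CPM in the WT mice and 117, 104 and 108 CPM in KO mice 588, 589 and 591 (log2 fold change 0.28, adjusted p = 0.102, edgeR). For *Gap43*, a growth-associated protein, the log2 fold change was 0.10 (adjusted p = 0.676), and for *Matn2*, a matrilin of the matrix, it was -0.18 (adjusted p = 0.463, edgeR).

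Genes of the sheath around nerve fascicles and of axons were examined next. The 6 perineurial genes, of which 5 were tested, summed to 14.6 to 16.9 CPM in WT and 15.3 to 17.5 CPM in KO muscle. The log2 fold change was 0.38 for *Cldn1*, a tight junction protein (adjusted p = 0.235), -0.29 for *Lypd2* (adjusted p = 0.616) and -0.28 for the glucose transporter gene *Slc2a1* (adjusted p = 0.361, all edgeR). The 12 axon and neuron genes, of which 5 were tested, summed to 37.0 to 38.4 CPM in WT and 35.3 to 36.5 CPM in KO muscle, so that the genotypes did not overlap, and *Chat* was at 0 in every library. *Uchl1* (log2 fold change -0.17, adjusted p = 0.414) and *Prph*, the intermediate filament of peripheral axons (-0.25, adjusted p = 0.588, edgeR), did not differ beyond the spread between mice. In neither list did a tested gene have the order 588, 591, 589, which 18.2% of all tested genes had. With 5 tested genes in each list, such a count says little. Most axonal mRNA lies in cell bodies outside muscle.

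Markers of other cell types were set beside these values. The 6 oligodendrocyte genes reached at most 6 counts in any library, with *Opalin* at 0 in all. All 8 adipocyte genes were tested and none was called. They summed to 2744 to 4172 CPM in the WT mice and to 3212, 7115 and 3595 CPM in KO mice 588, 589 and 591, with a median ratio of KO 589 to KO 588 of 2.66. Of these 8 genes, 6 had the order 588, 591, 589 and 7 were highest in KO 589, where 19.9% of all tested genes were. The 10 genes of slow fibres summed to 1197 to 2019 CPM in the WT mice and to 1605, 2377 and 1732 CPM in KO mice 588, 589 and 591, and 9 of them had this order. The library with the most *Mbp* thus also had the most adipocyte and slow fibre transcripts, and the part of these in the result was not tested.

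KO 588, with the least *Mbp*, did not stand below the WT mice for adipocyte or slow fibre genes, at 0.960 and 1.07 times their mean sum. The muscle fibre list, with 4 of 10 genes called higher in KO muscle and none lower (edgeR, adjusted p under 0.05), summed to 68290 to 71630 CPM in WT and 76670 to 88310 CPM in KO muscle, so that every KO mouse was above every WT mouse, with KO 588 at 1.26 times the WT mean. Leukocyte genes, of which 3 of 7 tested fell in KO muscle (edgeR, adjusted p under 0.05), summed to 934 to 1089 CPM in WT and 512 to 657 CPM in KO muscle. Endothelial genes summed to 172 to 198 CPM in WT and 137 to 175 CPM in KO muscle, with 1 of 8 fallen, and fibroblast genes to 11230 to 13180 and 9345 to 10870 CPM with none of 8 called. The sums of 6 erythrocyte genes (4749 to 10400 CPM in WT, 4169 to 4538 in KO), 6 satellite cell genes (48.6 to 56.8 and 49.7 to 57.0) and 6 melanocyte genes (12.3 to 15 and 13.8 to 15.9) did not follow the order of *Mbp* among the KO mice.

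**Figure D5:**
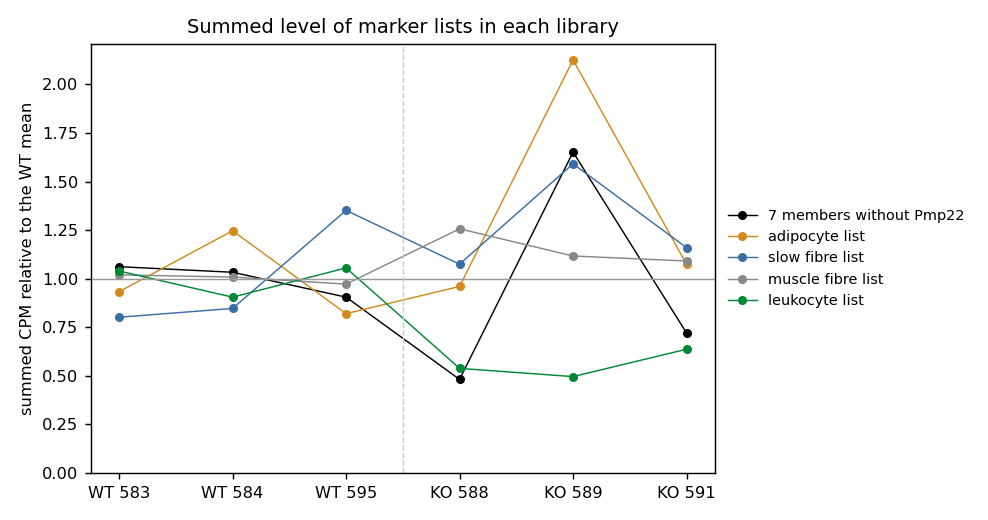
Summed CPM of the 7 genes without *Pmp22* and of 4 marker lists in each library, divided by the mean of the WT libraries (vertical axis from 0, points joined only to follow a list). The 7 genes were at 0.482 in KO 588 and 1.65 in KO 589, and the adipocyte list at 0.960 and 2.13.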

How the data were processed

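RNA-seq counts of reads per gene were deposited by the authors without normalization for 6 libraries. The study's methods name a stranded mRNA kit and HISAT2 mapping to mm10 (GRCm38), whereas the submitters' processing notes name Bowtie 0.12.2 and mm8. The coordinates of the members matched a GRCm38 annotation, except those of *Sox10*, which differed from it. The counting tool and its use of strand are not given in the sources used here. *Mbp*, *S100b*, *Prx*, *Ncmap* and *Cnp* each overlap a gene on the opposite strand, with up to 1578 counts (*Dnajc7*, over *Cnp*).

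Genotypes came from the sample titles. In these the letters before the mouse are KOT for KO 589 and KO for the other KO libraries. The labels do not say what the T stands for, and KO 589 was treated as a KO library. Genes were kept by filterByExpr (minimum count 10, total 15), scaled by TMM, and compared by the quasi-likelihood test of edgeR 4.0.16 (genotype only, R 4.3.3), and p-values were Benjamini-Hochberg adjusted over all tested genes at 0.05. The 448 rows without a gene name (0.1145% to 0.1278% of counts) were kept. The BCV, the coefficient of variation between mice, was 12.1%. Nothing states how the tissue pieces were taken, so p-values measure the spread between these libraries. No 2 libraries of a genotype agreed within sampling noise (chi-square per gene at least 12.99). CPM use TMM-scaled totals, and the index a prior count of 2. Counting intervals are exact 95% intervals and cover counting error only.

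The members and lists were chosen with earlier results of these data known. The genes named by rule were the members, *Tarsl2*, the 3 genes with the highest CPM per kb in each nerve list with any past the threshold, and the 5 nearest profiles to the index. Further genes outside this rule, such as *Mal*, *Ugt8a*, *Erbb3* and *Tubb3*, were named after their values were seen. Some single genes are not reported here. The edgeR fit was tested on simulated data. Alternatives were DESeq2 1.42.0, limma-voom (limma 3.58.1), other normalizations and filters, other members in the index, and each library left out.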

Additional observations from a re-analysis of the deposited data

How the results depend on the processing

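The count of genes that differed between genotypes, 342 by edgeR, was 719 with DESeq2 and 1437 without a filter, and 81 to 625 with single libraries left out. The count of members that differed, 0, was 1 without a filter (*Cnp*) and 0 to 1 with a library left out (*Mbp* without KO 589, the library with its highest value). For the other nerve lists it was 2 without a filter (*Degs1* and *Erbb3*) and 0 to 1 with a library left out (*Degs1* without WT 584). The estimate for *Mbp* changed sign with limma-voom (-0.63), upper quartile scaling (-0.018) and library totals (-0.0068), and ran from -1.42 to 0.47 with a library left out. That for *Prx* was -0.025 with limma-voom and -0.25 to 0.43 with a library left out, that for *S100b* -0.28 to 0.085 that for *Ncmap* -0.013 to 0.39, that for *Pmp22* -0.25 to -0.068 (without WT 595) and that for *Cnp* -0.52 to -0.28. The index of WT 583 was -0.0853 from *Prx* and *Ncmap* alone, 0.0876 without *Mbp* and 0.195 without *Ncmap*. That of KO 591, -0.092, was 0.176 from *Prx* and *Ncmap* alone and 0.0381 without *Mbp*. That of WT 584 was -0.0888 from *Prx* and *Ncmap* alone, 0.00777 without *Mbp* and 0.130 without *Prx*, and that of WT 595 was 0.00684 without *Pmp22* and 0.137 without *S100b*. The causes of these changes were not tested. The index difference between genotypes ran from -0.47 to 0.10 with a library left out. No paired analysis was possible because WT and KO mice share no mouse number. At these depths *Mag* and *Sox10* allow no statement on genotype, since without a filter edgeR gave -0.10 for *Mag* (adjusted p = 0.958) and 0.76 for *Sox10* (adjusted p = 0.693) on the log2 scale.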

Other observations

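Over the 6 libraries, the profile nearest to the nerve index among 13892 genes whose mean log2 CPM reached 0 was that of *Spred3*, with a root mean square distance of 0.112 on the log2 scale. *Drp2*, whose product binds periaxin, was next at 0.115, at 4.20, 3.87 and 3.72 CPM in WT mice 583, 584 and 595 and at 2.67, 6.23 and 3.88 CPM in KO mice 588, 589 and 591. *Dmrt2*, a transcription factor gene, was at 0.117, *Tlr6*, a Toll-like receptor gene of leukocytes, at 0.128, and a transcribed region without a gene name at 0.131. None of these 5 differed between genotypes (adjusted p 0.668 to 0.871, edgeR). With only 6 libraries, genes of unlike tissues came this close to the index, and the distances describe these libraries only.

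*Tubb3*, a tubulin of neurons, had 14, 16 and 12 counts in the WT mice and 7, 4 and 3 counts in KO mice 588, 589 and 591, so that the genotypes did not overlap. Its log2 fold change was -1.54 (standard error 0.45, adjusted p = 0.0948, edgeR) and did not pass, and the gene was chosen after its values were seen.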
